A study of Homo sapiens with 18 samples.

Results

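This account concerns 10 genes that mark the ovarian serous lineage or serve as clinical markers and targets of ovarian cancer. They were chosen by symbol, as PAX8, WT1, EMX2, MECOM, MUC16, MUC1, MSLN, FOLR1, SLC34A2 and WFDC2, and all 10 were found among the 12853 genes of the RNA-seq table. RNA-seq was carried out on 6 ovarian cancer cell lines in triplicate, which makes 18 libraries. Each platinum-sensitive line has a resistant counterpart, which makes 3 pairs, and all lines were grown in the same serum-containing RPMI medium, with no drug named for these libraries. PEA1 came from the ascites of a patient with high-grade serous ovarian cancer before platinum chemotherapy, and PEA2 came from the same patient after a resistant relapse. PEO1 and PEO4 were derived from a further patient with this cancer, both after platinum chemotherapy, the first while the disease still responded and the second once it no longer did. CP70 was selected in vitro for platinum resistance from A2780, a line that the labels describe as endometrial/ovarian. PEA1, PEA2, PEO1 and PEO4 are called the serous lines here. The sources do not say whether replicates were separate cultures, so p-values measure the spread between these libraries, and the 4 serous lines stand for 2 patients only.

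The Müllerian epithelium that lines the fallopian tube and uterus is set up by lineage transcription factors of the urogenital tract, and serous carcinoma usually keeps several of them. PAX8 and WT1 are the nuclear stains that pathologists use to recognise serous carcinoma. The cells also carry surface and secreted proteins that reach ascites and blood, such as the CA125 antigen on the mucin MUC16 and HE4, the product of WFDC2, and some of these proteins, among them folate receptor alpha and mesothelin, are targets of antibody drugs.

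The bases upstream of the start site are shown for 5 genes whose levels the results turn on. PAX8, WT1 and WFDC2 are the genes whose serous libraries all lay above all A2780 and CP70 libraries, which for WFDC2 rested on 1 read in PEA1 replicate 1. MUC16 and SLC34A2 moved in opposite directions within the PEA pair. Each line is 200 bases long, is written from 5′ to 3′ on the strand of the gene and ends at the base before the most upstream RefSeq start in GRCh38.p14. RefSeq gave 4 starts for WT1, 2 each for MUC16 and SLC34A2, and 1 each for PAX8 and WFDC2. Which start the cell lines use was not tested. Capitals mark every CG dinucleotide, the site of DNA methylation.
PAX8, chr2:113278922-113279121, minus strand: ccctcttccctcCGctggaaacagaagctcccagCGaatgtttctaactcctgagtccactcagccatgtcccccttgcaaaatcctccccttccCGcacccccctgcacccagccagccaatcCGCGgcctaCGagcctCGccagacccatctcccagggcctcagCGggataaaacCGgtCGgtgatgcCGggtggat
WT1, chr11:32435540-32435739, minus strand: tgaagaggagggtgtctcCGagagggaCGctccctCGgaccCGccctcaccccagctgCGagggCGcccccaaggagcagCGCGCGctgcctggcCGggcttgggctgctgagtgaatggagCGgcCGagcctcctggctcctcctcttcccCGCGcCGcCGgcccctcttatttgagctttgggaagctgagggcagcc
WFDC2, chr20:45469553-45469752, plus strand: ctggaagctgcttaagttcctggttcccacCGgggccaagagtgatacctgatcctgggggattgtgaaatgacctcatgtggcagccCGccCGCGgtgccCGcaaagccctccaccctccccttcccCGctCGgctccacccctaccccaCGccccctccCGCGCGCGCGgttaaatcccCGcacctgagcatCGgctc
MUC16, chr19:9065752-9065951, minus strand: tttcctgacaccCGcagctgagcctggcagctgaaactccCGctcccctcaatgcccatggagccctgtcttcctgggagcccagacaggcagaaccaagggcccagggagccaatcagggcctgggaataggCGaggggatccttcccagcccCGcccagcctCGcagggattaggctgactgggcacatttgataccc
SLC34A2, chr4:25655651-25655850, plus strand: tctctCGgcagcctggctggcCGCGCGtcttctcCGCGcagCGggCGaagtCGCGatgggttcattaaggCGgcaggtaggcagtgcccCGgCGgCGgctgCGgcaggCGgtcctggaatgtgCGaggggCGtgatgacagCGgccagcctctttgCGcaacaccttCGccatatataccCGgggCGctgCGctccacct
The SLC34A2 window held 24 CG dinucleotides, against 16 for WT1, 15 for WFDC2, 11 for PAX8 and 5 for MUC16. Over the 250 bases upstream, the ratio of observed to predicted CG was 1.10 for SLC34A2, at percentile 97.0 of 35116 RefSeq promoters, and 0.253 for MUC16, at percentile 28.5. The median over all promoters was 0.558. RefSeq promoters matched 8 of the 10 genes, without FOLR1 and MSLN. On either strand of these 250 bases, TATAAA was found in 1 of 8 genes (MUC1), GGGCGG in 6 and CCAAT in 3, against 10.7%, 42.6% and 32.0% of all promoters. These are matches of letters and not evidence of binding.

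The levels are log2 CPM (reads scaled to a common library size), in which the authors added 0.5 reads to each count. The libraries held 1344098 to 7067336 reads on the listed genes. A count of 0 therefore allows a level of up to 3 reads, or 0.452 to 2.18 CPM depending on the library, and this limit covers counting error only. Genes were compared with limma in 1 fit of all 18 libraries. A gene is said to have changed at a false discovery rate (FDR, Benjamini-Hochberg over all genes) below 0.05, and to be differentially expressed where the log2 fold change also exceeded 2 in size. Almost every one of the 12853 genes had a line mean above a log2 CPM of 3 in at least 1 line, 12819 genes besides any 1 of the 10. A gene near 0 reads in some lines therefore had to vary. For this reason the counts of the 10 genes that passed a test stand beside the same share over all genes.

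The 10 genes were near the detection limit in A2780 and CP70 and varied widely among the serous lines. In A2780, 8 of 10 genes had at most 3 reads in every library, and in CP70 7 did, against 11.3% and 8.61% of all genes. The numbers were 2 in PEA1, 1 in PEA2, 1 in PEO1 and 3 in PEO4, against 7.62%, 5.46%, 3.19% and 4.12% of all genes. Summed over the 10 genes, the mean level was 4.54 CPM in A2780, 2.79 in CP70, 669 in PEA1, 655 in PEA2, 3323 in PEO1 and 3668 in PEO4. The range of line means over the 4 serous lines had a median of 6.53 log2 units for the 10 genes and 1.41 for all genes. Within the serous lines PAX8 varied least, by 1.05, and MUC16 most, by 10.91.

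**Figure D1:**
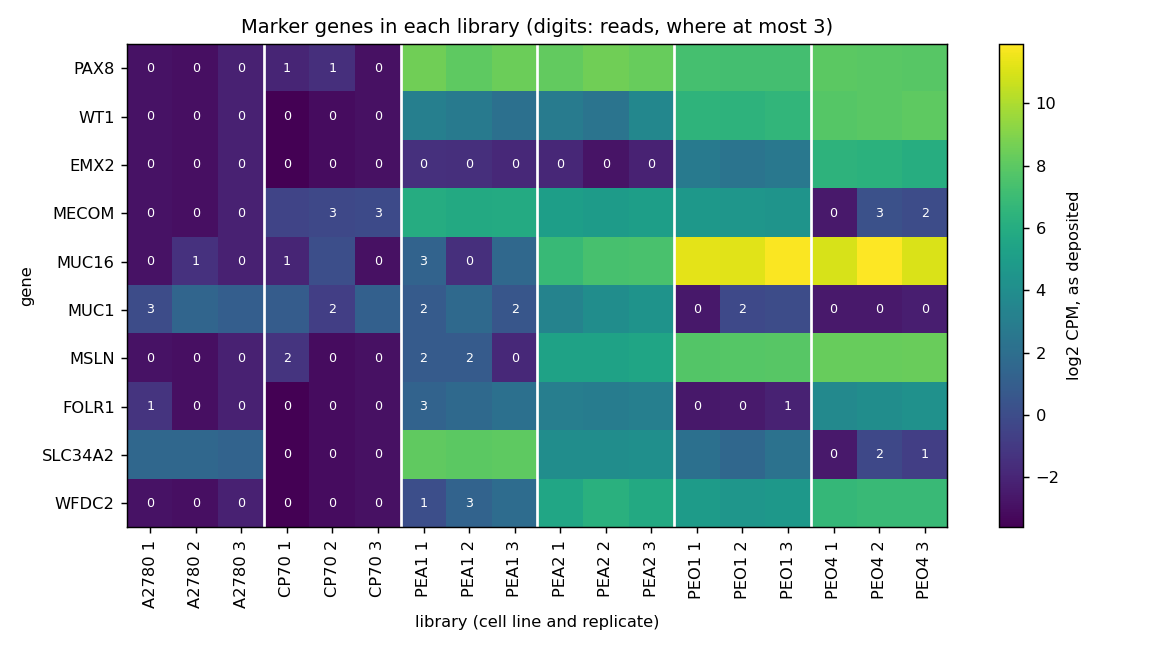
Log2 CPM of the 10 genes (rows) in each of the 18 libraries (columns, 3 replicates for each of 6 lines), with colour giving the level and digits the reads where a library had at most 3. PAX8 was high in all 4 serous lines, MUC16 reached the highest levels in PEO1 and PEO4, and most genes lay near the floor in A2780 and CP70.

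PAX8 is a paired-box transcription factor of Müllerian, renal and thyroid epithelium (ENSG00000125618, GRCh37 chr2:113973574-114036498, minus strand). Its log2 CPM values were 8.56, 8.08 and 8.42 in PEA1, 8.18, 8.52 and 8.30 in PEA2, 7.33, 7.29 and 7.29 in PEO1, and 8.00, 7.96 and 7.89 in PEO4. A2780 had 0 reads in each library, and CP70 had 1, 1 and 0. Every serous library was thus far above every A2780 and CP70 library. Against the pooled A2780 and CP70 reads, the lowest serous line, PEO1, was 1874-fold higher (95% counting interval 518 to 15484). The PEA lines did not differ from each other beyond their spread (log2 fold change -0.02, SE 0.27, limma FDR 0.957). In the PEO pair the libraries did not overlap and the log2 fold change was 0.65 (SE 0.27), which missed the threshold in limma (FDR 0.0597). Weighting by the recovered reads gave this difference an FDR of 1.94e-05, and a fit of the PEO lines alone gave 5.29e-06. PAX8 was higher in the PEA lines than in the PEO lines by 0.72 (SE 0.19, limma FDR 0.00225).

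WT1 encodes a zinc-finger factor of the developing gonad, kidney and mesothelium (ENSG00000184937, chr11:32409321-32457110, minus strand). A2780 and CP70 had 0 reads in all 6 libraries. The reads were 11, 9 and 7 in PEA1 and 13, 17 and 25 in PEA2, at log2 CPM values of 3.06, 2.76 and 2.11 and of 2.85, 2.33 and 3.54. The PEO lines held far more, with log2 values of 6.46, 6.44 and 6.57 in PEO1 and 7.79, 7.92 and 8.08 in PEO4. All serous libraries were above all others, but the PEA and PEO lines were far apart, by a log2 difference of -4.44 (SE 0.25, limma FDR 3.98e-12). Taken against 3 reads in each A2780 and CP70 library, WT1 was at least 7.91-fold higher in PEA1, 9.66-fold in PEA2, 121-fold in PEO1 and 322-fold in PEO4. It rose 2.67-fold from PEO1 to PEO4 (counting interval 2.48 to 2.87), a log2 fold change of 1.44 (SE 0.35, limma FDR 0.00243). In the PEA pair, where the libraries overlapped, the log2 fold change was 0.26 (SE 0.35, limma FDR 0.529).

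EMX2 is a homeobox factor needed for the urogenital tract (ENSG00000170370, chr10:119301956-119309057, plus strand). It had 0 reads in all 12 libraries of A2780, CP70, PEA1 and PEA2. In PEO1 the reads were 21, 14 and 40, with log2 values of 2.81, 2.37 and 2.61, and in PEO4 they were 249, 231 and 165, with log2 values of 6.43, 6.27 and 6.07. Reads of EMX2 were thus found in the PEO lines only, and the PEO4 libraries all lay above the PEO1 libraries. EMX2 rose 12.9-fold in PEO4 (counting interval 10.1 to 16.6), a log2 fold change of 3.66 (SE 0.39, limma FDR 2.57e-07).

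MECOM encodes the EVI1 zinc-finger factor of the chromosome 3q region that is often gained in serous cancer (ENSG00000085276, chr3:168801287-169381563, minus strand). Its log2 values were 6.02, 5.84 and 5.88 in PEA1, 5.08, 4.91 and 5.09 in PEA2, and 4.64, 4.55 and 4.44 in PEO1. PEO4 had 0, 3 and 2 reads, CP70 had 4, 3 and 3, and A2780 had 0 in each library. PEO4 therefore stood with CP70, apart from the other serous lines. MECOM fell 38.1-fold from PEO1 to PEO4 (counting interval 16.1 to 118), with a log2 fold change of -5.31 (SE 0.50, limma FDR 4.63e-08). In the PEA pair the PEA2 libraries were all below the PEA1 libraries, and the log2 fold change was -0.89 (SE 0.50, limma FDR 0.127). With weights from the recovered reads this FDR was 9.36e-05, and in a fit of the PEA lines alone it was 0.000609. In the A2780 pair limma gave a log2 fold change of 2.37 (SE 0.50, FDR 0.000626), which rested on 10 reads in CP70 and 0 in A2780. With 2 reads added to each count the log2 fold change was 0.86 (limma FDR 0.0280), so the difference passed the FDR but not the fold threshold. The size of the difference is not fixed at this depth, since 3 reads in each A2780 library, which a count of 0 allows, would put the ratio of CP70 to A2780 at 0.762.

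**Figure D2:**
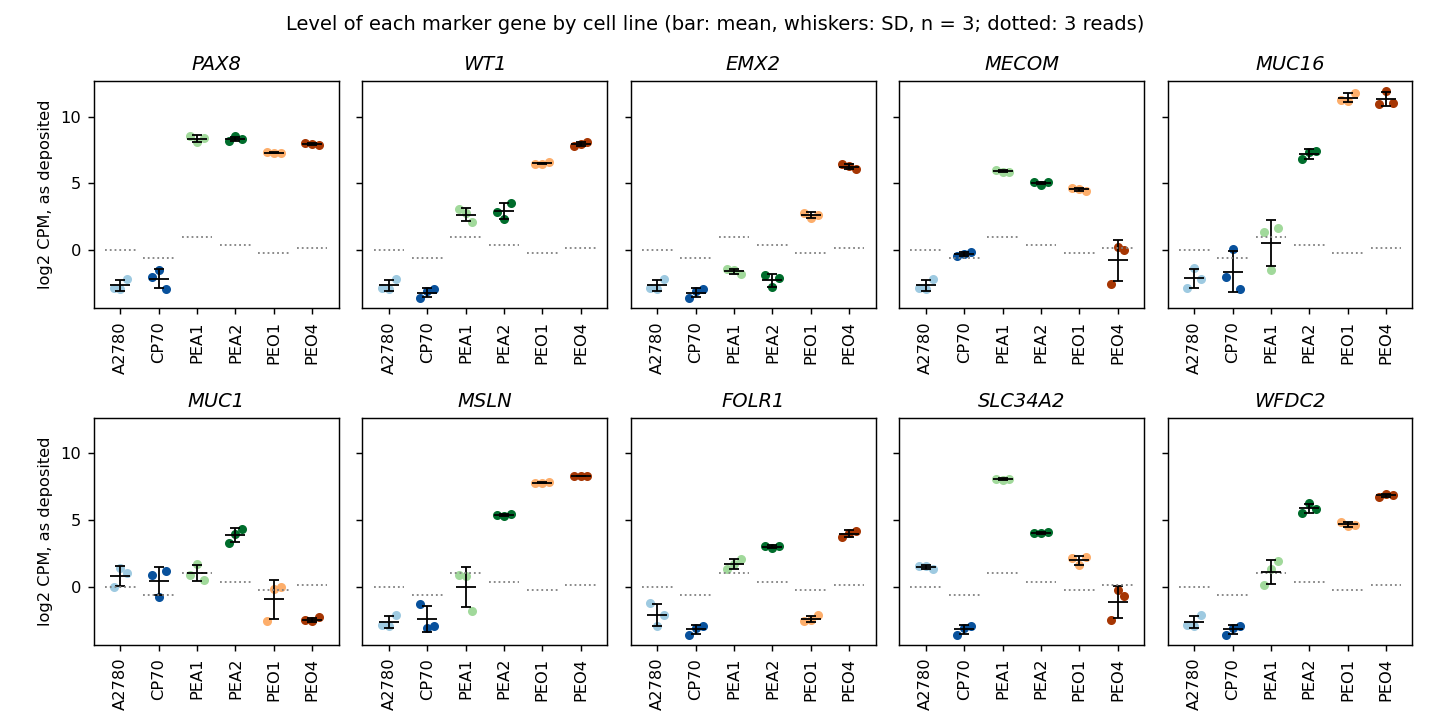
Log2 CPM of each gene in the 3 libraries of each line (points), with the line mean (bar), SD (whiskers, n = 3) and the level of 3 reads (dotted), in 1 panel for each of the 10 genes. PAX8 varied little across the serous lines, with line means from 7.30 to 8.35, while EMX2 had reads in PEO1 and PEO4 alone and SLC34A2 was highest in PEA1 at a mean of 8.05.

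Antisense transcripts of 3 of these factor genes were also in the table. EMX2OS had 0 reads outside the PEO lines, 1, 2 and 15 reads in PEO1 and 227, 236 and 182 in PEO4, a log2 fold change of 6.26 (SE 0.49, limma FDR 4.22e-09). WT1-AS had 32 to 106 reads in PEO1 and 70 to 87 in PEO4, and its log2 fold change of 1.02 (SE 0.50) missed the threshold in limma (FDR 0.110). PAX8-AS1 gave log2 fold changes of -0.30 in the PEA lines and 0.57 in the PEO lines, with limma FDRs of 0.507 and 0.240. The libraries were strand-specific, but the strand setting of the read counting is not given in the sources used here, so reads of a gene and its antisense partner may not be fully separated.

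MUC16 encodes the giant membrane mucin that carries the CA125 antigen (ENSG00000181143, chr19:8959520-9121066, minus strand). Its log2 values were 11.27, 11.19 and 11.80 in PEO1, 10.99, 11.90 and 11.03 in PEO4, and 6.82, 7.37 and 7.42 in PEA2. PEA1 had 3, 0 and 5 reads, A2780 had 0, 1 and 0, and CP70 had 1, 4 and 0. The PEO lines were highest and overlapped each other, PEA2 came between, and PEA1 overlapped A2780 and CP70. MUC16 rose 87.0-fold from PEA1 to PEA2 (counting interval 44.0 to 202), with a log2 fold change of 6.70 (SE 0.68, limma FDR 5.16e-08). In the PEO pair the log2 fold change was -0.11 (SE 0.68, limma FDR 0.914), and in the A2780 pair it was 0.50 (SE 0.68, FDR 0.586).

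MSLN encodes mesothelin, a membrane-anchored protein of mesothelium that binds MUC16 (ENSG00000102854, chr16:810734-818865, plus strand). The log2 values were 7.78, 7.79 and 7.86 in PEO1, 8.28, 8.32 and 8.33 in PEO4, and 5.35, 5.30 and 5.48 in PEA2. PEA1 had 2, 2 and 0 reads, CP70 had 2, 0 and 0, and A2780 had 0 in each library. MSLN thus had the same order of PEO lines, PEA2 and PEA1 as its binding partner. It rose 46.3-fold from PEA1 to PEA2 (counting interval 17.9 to 171), with a log2 fold change of 5.41 (SE 0.54, limma FDR 4.10e-08). In the PEO pair the libraries did not overlap, and the log2 fold change of 0.50 (SE 0.54) missed the threshold in limma (FDR 0.495). Weights from the recovered reads gave it an FDR of 0.000195, and a fit of the PEO lines alone 5.13e-05.

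MUC1 is the membrane mucin of most glandular epithelia (ENSG00000185499, chr1:155158300-155162707, minus strand). It was low throughout, with 3, 10 and 4 reads in A2780, 11, 2 and 8 in CP70, 2, 4 and 2 in PEA1, 0, 2 and 6 in PEO1, and 0 in each PEO4 library. PEA2 stood above the rest with 18, 54 and 44 reads and log2 values of 3.30, 3.97 and 4.35. MUC1 rose 8.69-fold from PEA1 to PEA2 (counting interval 4.27 to 20.6), a log2 fold change of 2.85 (SE 0.63, limma FDR 0.000633). The PEO pair gave -1.54 (SE 0.63, limma FDR 0.0588), and without PEO1 replicate 1, which had 0 reads, it gave -2.38 (FDR 0.00314). With every library set to at least 3 reads the PEO difference was 0.14, so its direction was not settled at this depth.

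FOLR1 encodes folate receptor alpha (ENSG00000110195, chr11:71900602-71907367, plus strand). Its log2 values were 3.70, 4.02 and 4.21 in PEO4, 3.05, 2.88 and 3.08 in PEA2, and 1.35, 1.68 and 2.11 in PEA1. PEO1 had 0, 0 and 1 reads, A2780 had 1, 0 and 0, and CP70 had 0 in each library. PEO1 was therefore as low as A2780 and CP70, and PEO4 was the highest line. From PEO1 to PEO4 FOLR1 rose with a log2 fold change of 6.39 (SE 0.42, limma FDR 4.68e-10). Since PEO1 had 1 read in all, the ratio of 194 had a counting interval of 34.3 to 7739. In the PEA pair FOLR1 rose 2.48-fold (counting interval 1.37 to 4.82), a log2 fold change of 1.29 (SE 0.42, limma FDR 0.0127), and this FDR was 0.0554 without PEA1 replicate 1. In the A2780 pair limma gave an FDR of 0.0491, on 1 read in 6 libraries, so no difference was detectable there.

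SLC34A2 encodes the sodium-phosphate cotransporter NaPi2b (ENSG00000157765, chr4:25649633-25680370, plus strand). It was highest in PEA1, with log2 values of 8.11, 7.97 and 8.05, followed by 4.02, 4.02 and 4.14 in PEA2 and 2.14, 1.60 and 2.25 in PEO1. A2780 had 10, 11 and 5 reads at log2 values of 1.55, 1.57 and 1.30, PEO4 had 0, 2 and 1 reads, and CP70 had 0 in each library. The resistant line of each pair was below its sensitive line, with no overlap between libraries. SLC34A2 fell 16.0-fold from PEA1 to PEA2 (counting interval 13.3 to 19.5; log2 fold change -3.98, SE 0.43, limma FDR 1.36e-07). It fell 11.6-fold from PEO1 to PEO4 (counting interval 3.75 to 58.0; log2 fold change -3.17, SE 0.43, limma FDR 6.49e-06). In CP70 it was at least 4.21-fold lower than in A2780, taken against 3 reads in each CP70 library (limma FDR 2.42e-08). SLC34A2 was thus the 1 gene of the 10 that was differentially expressed in all 3 pairs, each time lower in the resistant line, as were 7 of all 12853 genes (0.0545%).

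WFDC2 encodes the secreted protease-inhibitor-like protein HE4 (ENSG00000101443, chr20:44098393-44110172, plus strand). The log2 values were 6.71, 6.93 and 6.91 in PEO4, 5.54, 6.26 and 5.83 in PEA2, and 4.88, 4.53 and 4.66 in PEO1. PEA1 had 1, 3 and 6 reads, and A2780 and CP70 had 0 in all 6 libraries. In both serous pairs the resistant line was above the sensitive line with no overlap. WFDC2 rose 28.5-fold from PEA1 to PEA2 (counting interval 15.4 to 59.9; log2 fold change 4.76, SE 0.39, limma FDR 2.66e-09). It rose 4.48-fold from PEO1 to PEO4 (counting interval 3.95 to 5.10; log2 fold change 2.16, SE 0.39, limma FDR 0.000160). Taken against 3 reads in each A2780 and CP70 library, it was at least 2.93-fold higher in PEA1 and at least 152-fold higher in PEO4.

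Levels of different genes are compared per kilobase of exon, with exon length taken from the GRCh37 annotation. In PEA1 the highest mean CPM per kilobase was that of SLC34A2 (52.3), followed by PAX8 (44.7) and MECOM (6.49). In PEA2 WFDC2 (44.8) and PAX8 (44.0) led, without a difference beyond their spread, followed by MSLN (16.0). MSLN was highest in PEO1 at 86.6, with MUC16 at 63.2 and PAX8 at 21.4. In PEO4 MSLN (123), WFDC2 (86.4) and MUC16 (60.0) stood above PAX8 (33.6) and WT1 (30.1). The surface or secreted marker of highest level by this measure was therefore SLC34A2 in PEA1, WFDC2 in PEA2 and MSLN in both PEO lines.

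The serous lines were compared with A2780 and CP70 to ask how far these genes separate the lines of serous origin from the others. The mean of the 4 serous lines was higher for 9 of 10 genes, with a log2 fold change above 2 and an FDR below 0.05 in limma. Over all genes, 20.5% were differentially expressed in this comparison and 15.9% were higher in the serous lines, and 80.0% passed the FDR alone. The log2 fold changes ran from 4.10 for SLC34A2 (SE 0.27, limma FDR 1.49e-11) to 10.39 for PAX8 (SE 0.16, FDR 3.90e-21), with a median over the 10 genes of 6.35 against 0.07 over all genes. With every library set to at least 3 reads the median was 4.60 against 0.08. MUC1 gave -0.25 (SE 0.39, limma FDR 0.560), and 0.71 with the 3-read minimum. A difference of means did not imply that each serous line was high, and every serous library lay above every A2780 and CP70 library for 3 of 10 genes, PAX8, WT1 and WFDC2, against 13.2% of all genes. For WFDC2 this rested on PEA1 replicate 1, with 1 read (0.726 CPM). In A2780 replicate 3 a count of 0 allows 3 reads, or 1.34 CPM, so the separation of WFDC2 was not settled at this depth. MUC16 and MSLN overlapped through PEA1, FOLR1 through PEO1, EMX2 through both PEA lines, MECOM through PEO4, and SLC34A2 through PEO4. For SLC34A2 the mean in A2780, 1.47 ± 0.15 (SD, n = 3), lay between those of PEO1 (2.00 ± 0.34) and PEO4 (-1.17 ± 1.20).

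The 2 serous pairs differed in which genes they expressed. Between the PEA lines and the PEO lines 8 of 10 genes were differentially expressed in limma, against 13.3% of all genes, and 10 of 10 passed the FDR alone, against 73.5%. MUC1, SLC34A2 and MECOM were higher in the PEA lines, with log2 differences of 4.15, 5.64 and 3.58. WT1, MUC16, MSLN, WFDC2 and EMX2 were higher in the PEO lines, by log2 differences of PEA minus PEO of -4.44, -7.51, -5.39, -2.27 and -6.36. PAX8 and FOLR1 were higher in the PEA lines by 0.72 and 1.58. The MUC16 and MSLN differences averaged a PEA1 line near the floor with a PEA2 line well above it, and that of FOLR1 averaged PEO1 at the floor with PEO4, the highest line. With every library set to at least 3 reads the differences were smaller for EMX2 (-3.75), MUC1 (2.45) and FOLR1 (0.46).

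The resistant and sensitive lines of each pair were compared to ask which of these genes differ with platinum sensitivity. In the A2780 pair 2 of 10 genes were differentially expressed, SLC34A2 and, on few reads, MECOM, against 9.06% of all genes, and 3 of 10 passed the FDR alone, against 39.9%. In the PEA pair 5 of 10 were differentially expressed, against 14.1%, with MUC16, MSLN, WFDC2 and MUC1 higher in PEA2 and SLC34A2 lower. There 6 of 10 passed the FDR alone, against 61.9%. In the PEO pair 5 of 10 were differentially expressed, against 6.22%, with FOLR1, EMX2 and WFDC2 higher in PEO4 and MECOM and SLC34A2 lower. With WT1, 6 of 10 passed the FDR alone, against 41.5%. WFDC2 rose in both serous pairs, while PAX8 passed the threshold in no pair. The median log2 fold change of the 10 genes was -0.46, 0.78 and 0.58 in the A2780, PEA and PEO pairs, against -0.02, 0.01 and -0.02 over all genes. WT1, WFDC2 and EMX2 had 0 reads in every A2780 and CP70 library. Each gave -0.55 in that pair, a value set by library depth and the 0.5 reads added. The A2780 median therefore does not measure a fall of these genes in CP70.

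**Figure D3:**
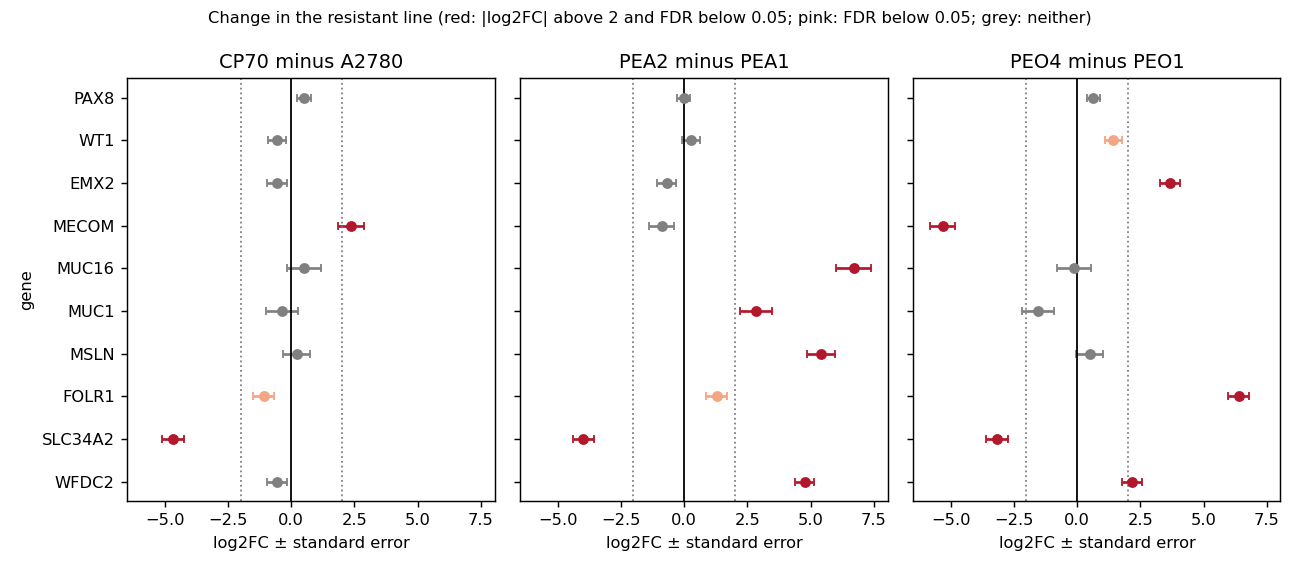
Log2 fold change of the resistant against the sensitive line for each of the 10 genes in the A2780, PEA and PEO pairs (error bars, SE from limma; red, differentially expressed; pink, FDR alone; grey, neither; dotted, a log2 fold change of 2 in size). MECOM and FOLR1 in the A2780 pair rest on 10 and 1 reads, SLC34A2 lay below 0 in all 3 pairs, and MUC16 stood at 6.70 in PEA2 against PEA1 and at -0.11 in PEO4 against PEO1.

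The changes were then compared between pairs with limma. The change in the PEA pair differed from that in the PEO pair for 8 of 10 genes, against 58.7% of all genes, and the exceptions were PAX8 and SLC34A2. The A2780 pair differed from the PEA pair for 6 of 10, against 57.5%, and from the PEO pair for 6 of 10, against 47.5%. MUC16, MSLN and MUC1 rose in PEA2 and did not pass the test in the PEO pair, and EMX2 rose in PEO4 and had 0 reads in the PEA lines. FOLR1 rose more in the PEO pair (log2 difference PEA minus PEO -5.10, limma FDR 5.32e-07) and WFDC2 more in the PEA pair (2.60, FDR 0.000474).

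PEA1 also stood apart from the other serous lines in markers of epithelium. Of 10 epithelial genes, 5 had at most 3 reads in every PEA1 library (KRT7, KRT19, CLDN3, CLDN4 and ESRP1), against 8 in A2780, 6 in CP70 and 0 in PEA2, PEO1 and PEO4. Their summed level was 164 to 213 CPM in PEA1, 4336 to 4510 in PEA2, 5477 to 5658 in PEO1, 4052 to 4476 in PEO4, 3.35 to 4.20 in A2780 and 90.8 to 97.0 in CP70. The epithelial markers were thus missing in part from the line labelled PEA1. KRT8, KRT18, EPCAM and ELF3 had mean log2 levels of 6.49, 6.10, 3.98 and 3.24 there, against 9.40, 8.59, 8.58 and 5.86 in PEA2. CDH1 had 0 to 4 reads in PEA1. All 10 epithelial genes were differentially expressed in the PEA pair in limma, each higher in PEA2, against 14.1% of all genes differentially expressed there. Summed over 6 genes of the mesenchymal state, the level was 2745 to 3089 CPM in PEA1 and 179 to 212 in PEA2, against 2196 to 3021 in A2780 and CP70 and 14.4 to 52.7 in the PEO lines, and 5 of the 6 fell in the PEA pair. VIM, which encodes vimentin, made up 85.1% of this sum in PEA1 and 59.6% in PEA2, and the other genes did not all place PEA1 with A2780 and CP70. The mean log2 level of SNAI2 was 1.16 in PEA1, 5.54 in A2780 and 0.67 in CP70, and that of ZEB2 was 3.80 in PEA1 against -2.65 in A2780 and -0.88 in CP70. MUC16, MSLN, WFDC2 and MUC1 rose in the same comparison as the epithelial markers, and SLC34A2 fell. The part of this shift in the results for the 10 genes was not tested.

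**Figure D4:**
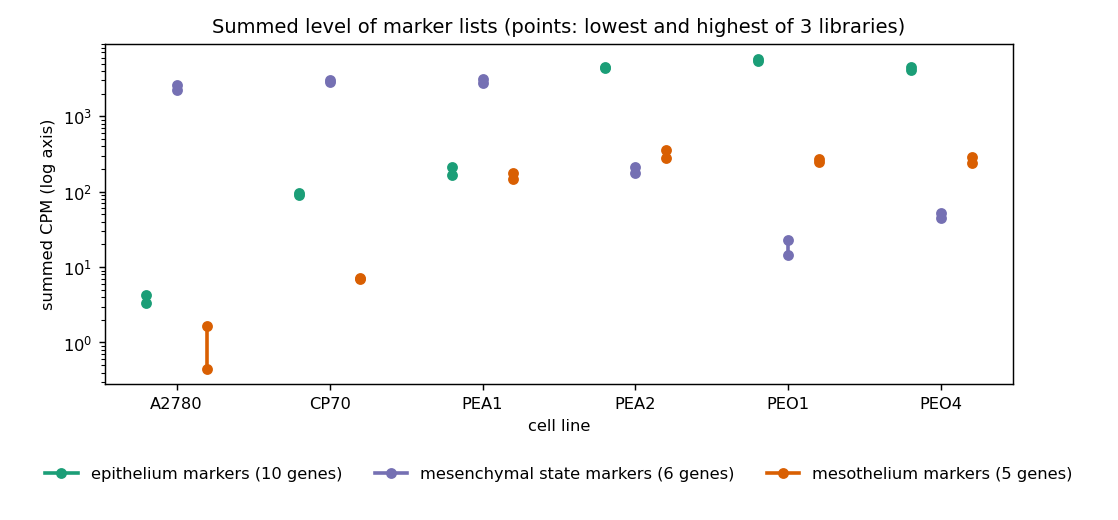
Summed CPM (log axis) of marker lists for epithelium (10 genes), the mesenchymal state (6 genes) and mesothelium (5 genes) in each line, with points at the lowest and highest of 3 libraries. PEA1 lay with A2780 and CP70 in the sum of mesenchymal markers, most of it VIM, at 2745 to 3089 CPM, and PEA2 with the PEO lines in epithelial markers.

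Mesothelial markers matter here since WT1 and MSLN are also expressed by mesothelium, the lining of the peritoneum. Their sum over the 5 listed genes was 0.447 to 7.11 CPM in A2780 and CP70 and 147 to 361 in the serous lines. Different genes led this sum. LRRN4 had mean log2 levels of 7.28 in PEA1 and 7.89 in PEA2, but 0.92 in PEO1 and 2.17 in PEO4. UPK1B had -0.28 and 1.91 in PEA1 and PEA2, but 7.63 and 7.50 in PEO1 and PEO4. CALB2 had 2.75 in CP70, against 2.05 in PEA1, 5.05 in PEA2, -0.49 in PEO1 and -2.47 in PEO4. In limma 4 of the 5 genes were differentially expressed, all higher in the mean of the serous lines, against 20.5% of all genes. At the FDR alone 5 of 5 were higher, and 80.0% of all genes passed in either direction. UPK3B had at most 3 reads in PEA1 and PEA2, UPK1B in PEA1 and CALB2 in PEO4. Of 7 leukocyte markers 1 was in the table, PTPRC, with 20.1 to 25.1 CPM in PEA2 and at most 0.526 elsewhere, and of 5 endothelial markers CDH5, with 25.3 to 36.1 CPM in PEA2 and at most 0.406 elsewhere. Of 7 fibroblast markers 5 were in the table, and they summed to 510 to 720 CPM in A2780 and 869 to 1009 in CP70, nearly all COL3A1, and to 366 to 447 in PEA1, all of it COL1A1. The sum was 3.45 to 6.40 CPM in PEA2, 3.26 to 7.39 in PEO1 and 77.5 to 84.1 in PEO4. COL1A2, DCN, LUM and COL3A1 had 0 reads in PEA1, and in the PEA pair 1 of the 5 genes rose and 1 fell at the FDR threshold in limma. The part of other cell types in the results was not tested, and fewer cells expressing a gene cannot be told apart in bulk RNA from less RNA in each cell.

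Other ovarian lineage factors went both ways between serous and other lines. Of 23 listed, 11 were in the table. In limma 4 were differentially expressed and higher in the serous lines and 6 lower, against 20.5% of all genes differentially expressed in this comparison. The median log2 fold change was -3.22 against 0.07 over all genes. ESR1, the estrogen receptor, was higher in the serous lines by 6.74, with line means of 7.84 and 8.06 in PEO1 and PEO4 but -1.58 and 2.01 in PEA1 and PEA2. SALL4, a stem cell factor, was lower in the serous lines by a log2 fold change of -6.41. SOX17, a Müllerian factor that acts with PAX8, rose by 4.22 in the PEA pair, and FOXL2 fell by 5.63 there on the log2 scale. Differentially expressed factors in the PEA pair were 2 up and 5 down, against 14.1% of all genes. The PEO pair had 0 up and 2 down (MEIS2 and FOXL2), against 6.22%, and the A2780 pair 1 up and 2 down, against 9.06%. At the FDR alone the PEO pair had 3 up and 2 down, against 41.5% of all genes.

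Other surface targets and secreted markers were mostly higher in the mean of the serous lines, though many were near the detection limit in PEA1. EPCAM, CLDN3 and CLDN4 of this list are epithelial markers counted above as well. Of 45 listed, 33 were in the table. In limma 24 were differentially expressed and higher in the serous lines and 2 lower. Over all genes 20.5% were differentially expressed in this comparison and 15.9% were higher. The median log2 fold change was 5.38 against 0.07 over all genes. CDH6 was higher by 10.71 and SPINT1 by 8.69, though SPINT1 had only 1 to 7 reads in the PEA1 libraries. Of the 33 genes, 13 had at most 3 reads in every PEA1 library. The numbers were 18 in A2780, 16 in CP70, 5 in PEA2, 2 in PEO1 and 4 in PEO4. In the PEA pair 17 were differentially expressed and higher and 3 lower, against 14.1% of all genes. The median was 2.16, and the largest rises were those of LCN2 (11.43), MUC4 (9.63) and CLDN4 (8.42). By the same rule the PEO pair had 3 up and 6 down, among them CRABP2 (6.67), CP (5.59) and the stem cell antigen PROM1 (-8.26). The A2780 pair had 6 up and 3 down, and the shares of all genes were 6.22% and 9.06%. At the FDR alone the PEO pair had 9 up and 10 down, against 41.5% of all genes. The A2780 pair had 8 up and 8 down, against 39.9%. The kallikreins KLK7, KLK5 and KLK6 were higher in the PEO lines than in the PEA lines, by log2 differences of PEA minus PEO of -9.79, -9.69 and -8.91, and MUC16 and MSLN differed in the same direction.

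The patterns over the 18 libraries were also compared between genes by Pearson's r, as a description in which the 3 libraries of a line share their source. Among the 10 genes, MUC16 and MSLN were the most alike (r = 0.97), followed by MSLN and WFDC2 (0.94) and WT1 and MSLN (0.93). SLC34A2 and MECOM had an r of 0.74, and MUC1 and EMX2 of -0.74. Among 12819 genes, the pattern of PAX8 was closest to ITGA3 (0.997) and ETS1 (0.994), that of WT1 to TMBIM6 (0.994) and P4HB (0.987), and that of EMX2 to DPP6 (0.992) and CACNA1I (0.990). MUC16 was closest to CBLC and FAM83A (0.982 each), MSLN to FAM83A and RHOD (0.989 each), and WFDC2 to RAMP1 (0.988) and MAPK13 (0.986). MECOM was closest to LYST (0.973) and TENM4 (0.970), FOLR1 to GLI3 (0.963) and IFIT3 (0.955), and SLC34A2 to KIRREL (0.955) and IDI1 (0.950). MUC1 had no gene above 0.95, with SLC7A1 (0.938) and SCD (0.925) closest. Above 0.95 there were 269 genes for PAX8, 88 for MSLN and 86 each for WT1 and WFDC2. MUC16 had 75 such genes, EMX2 52, MECOM 13, and FOLR1 and SLC34A2 3 each. For most of the 10 genes the 2 named are therefore the first of many with a similar pattern.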

How the data were processed

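RNA-seq of 18 rRNA-depleted libraries, 3 for each of 6 lines, was analysed. Per the labels, the submitters' processing notes name Bowtie2, featureCounts, limma and hg19. The authors deposited log2 CPM values for 12853 genes. The filter behind this table and the strand setting of the counting are not given in the sources used here. Whole reads came back from 100% of values (tolerance 0.01 reads), so depth is known, and 0 columns of sample values were left unused. Gene positions came from a GRCh37 annotation that matched 12642 gene identifiers and not 211, and promoters from RefSeq (GRCh38.p14).

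Tests were run on the log2 values as deposited, in limma (version 3.58.1, R 4.3.3), with a mean for each line and a trend of the variance with expression. Comparisons, all two-sided, were the 3 pairs, the serous lines against A2780 and CP70, the PEA lines against the PEO lines, and the differences between pair changes. The counting interval of a ratio is exact at 95%. The calculation was tested on simulated data in which only genes with a mean level well above the detection limit were changed. That test does not cover calls that rest on few reads. Named genes were all 10 members, up to 3 differentially expressed genes of each list and comparison by size of change, and the 2 genes of highest Pearson's r with each member. The antisense genes and some markers were named after their values were seen. A few list genes that this rule selects are not reported here, though the list counts include them. Members and lists were chosen with earlier results of these data known. The alternatives were quantile normalization, the replicate block, a filter on mean log2 above 0, limma without the trend, voom weights, 2 reads added, fits of the compared lines alone, |log2FC| above 1, and leaving out each library in turn.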

Additional observations from a re-analysis of the deposited data

Results flagged for a closer look

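The change from the sensitive to the resistant line differed between pairs for the genes below, by limma tests of the difference itself with Benjamini-Hochberg adjustment over all genes. Groups of 3 libraries were too small to look for a library far from the others.

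For the surface and secreted markers, the PEA change minus the PEO change was 6.81 log2 units for MUC16 (FDR 5.29e-06), 4.91 for MSLN (FDR 1.69e-05), 4.39 for MUC1 (FDR 0.000318), 2.60 for WFDC2 (FDR 0.000474) and -5.10 for FOLR1 (FDR 5.32e-07). For the factors it was 4.42 for MECOM (FDR 2.12e-05), -4.35 for EMX2 (FDR 1.31e-06) and -1.18 for WT1 (FDR 0.0484). EMX2 had 0 reads in every PEA1 and PEA2 library. Its PEA change entered as -0.69, a value set by library depth and the 0.5 reads added. The WT1 difference passed narrowly, and 10 of the fits that left out 1 library gave an FDR above 0.05, as did the replicate block (0.0524).

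The A2780 change minus the PEA change was -6.19 for MUC16 (FDR 1.64e-05), -5.32 for WFDC2 (FDR 1.04e-07), -5.19 for MSLN (FDR 8.79e-06), -3.22 for MUC1 (FDR 0.00459), -2.37 for FOLR1 (FDR 0.00222) and 3.26 for MECOM (FDR 0.000522). A2780 and CP70 had at most 4 reads of each of these genes but MUC1 in any library.

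The A2780 change minus the PEO change was -7.47 for FOLR1 (FDR 3.73e-09), -4.21 for EMX2 (FDR 2.90e-06), -2.71 for WFDC2 (FDR 0.000444), -1.99 for WT1 (FDR 0.00248), -1.51 for SLC34A2 (FDR 0.0487) and 7.68 for MECOM (FDR 2.33e-08). EMX2, WFDC2 and WT1 had 0 reads in every A2780 and CP70 library, FOLR1 had 1 read in A2780, and MECOM had 10 in CP70. The A2780 change entered as -0.55 for EMX2, WFDC2 and WT1 and as -1.08 for FOLR1, values that rest on at most 1 read. The SLC34A2 difference was above an FDR of 0.05 in most alternatives, up to 0.153 without PEO4 replicate 2, and no library of CP70 or PEO4 held over 2 reads of it.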

How the results depend on the processing

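The number of differentially expressed genes stayed within 1.5 times its value in every comparison and alternative but 1. With 2 reads added to each count, the A2780 pair had 1 gene in place of 2, since the MECOM log2 fold change was 0.86 (FDR 0.0280). The same setting turned the A2780 minus PEA pair change of SLC34A2 to 1.02 (FDR 0.0286), a value that depends on the reads added because CP70 had none. Leaving out 1 library at a time gave 2 to 2 genes in the A2780 pair, 5 to 5 in the PEA pair, 5 to 6 in the PEO pair, 9 to 9 between serous lines and the others and 8 to 8 between PEA and PEO lines. It gave 7 to 9, 6 to 7 and 5 to 6 for the differences between pair changes (PEA and PEO, A2780 and PEA, A2780 and PEO). With a replicate block the counts were 2, 5, 5, 9 and 8, and 7, 6 and 5 for the differences, which lost WT1 (FDR 0.0524) and SLC34A2 (FDR 0.0507). Same-numbered libraries of a pair had correlated deviations of -0.116 to 0.0901 over 9942 genes, so the numbers do not pair the libraries. WFDC2 differed by -1.98 between PEA and PEO lines with 2 reads added, and MUC1 by -1.72 (FDR 1.19e-05) between serous and other lines under quantile normalization, which moved the median of all genes there from 0.07 to -0.20, and that of the PEA pair from 0.01 to -0.10. The filter on mean log2 above 0 removed EMX2. Depth limits mainly the genes at or below 3 reads in A2780, CP70, PEA1 and PEO4.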
